A study of Mus musculus with 2 samples.

Results

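The transcripts of 10 genes that cells switch on quickly under stress or growth stimuli were described in mouse liver: the 3 Gadd45 genes (Gadd45a, Gadd45b and Gadd45g), Atf3, Fos, Jun, Junb, Egr1, Myc and Ier3. These genes were chosen by name, on earlier knowledge of how some of them differed between the diets in these same arrays, so their diet differences are given as a description and carry no p-value. They are 10 of the 27962 gene names on the array and are read by 14 probes. All 10 were among the 16730 genes that passed the filter on dim probes, which kept a probe well above its background on every array of at least 1 diet. The livers came from male apoE-KO mice, C57BL/6 animals that lack apolipoprotein E in the whole body, a ligand by which the liver clears lipoprotein remnants. From 10 weeks of age, the mice received normal chow or the high-Chol diet, which is the same chow with 1.25% cholesterol, for 1 week. Both groups carried the apoE deletion, and no wild-type liver was compared here. Liver RNA of 3 independent experiments a diet was hybridized to 1-colour Agilent mouse arrays with 60-base probes, giving 6 arrays in all. The number of animals behind 1 array was not given in the sources used here.

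GADD45 proteins are small stress sensors that bind PCNA and cyclin-dependent kinases to slow the cell cycle, and bind the kinase MEKK4 to switch on the p38 and JNK pathways. ATF3, FOS, JUN and JUNB are basic leucine zipper factors that pair with each other and bind AP-1 or related DNA sites, EGR1 is a zinc finger factor, MYC drives growth and ribosome production, and IER3 is an inducible regulator of survival and NF-kB signalling. In the liver, immediate early genes are known for their brief induction after partial hepatectomy, toxic injury and inflammatory signals, in hepatocytes as well as in macrophages.

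Each value below is the log2 of the background-subtracted signal minus the log2 of the array's 75th percentile over all probes that are not controls, so 0 marks the 75th percentile and each step of 1 is a doubling. Arrays were numbered by their position on the slides. Normal chow arrays 1, 2 and 3 and high-Chol array 1 shared slide 1, while high-Chol arrays 2 and 3 were on slide 2, which was read with another version of the scanner software. The 75th percentile signal was between 271 and 373 on slide 1 and between 762 and 799 on slide 2. The share of spots well above background ran from 50.5% on normal chow array 1 to 67.2% on high-Chol array 3. All 10 hepatocyte markers examined, such as albumin, were well above background on every array, and their mean level was between 7.75 and 8.14. In whole liver, fewer cells of a type and less RNA per cell cannot be told apart.

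The DNA just before the start site is shown for the 3 Gadd45 genes and for the 3 further genes whose signals did not overlap between the diets. RefSeq promoter windows of the mouse build GRCm38.p6 were at hand for 8 of the 10 genes. Egr1 and Myc were not matched. Each window below is the 250 bases before the start site, written 5′ to 3′ on the gene's own strand. The windows are chr6:67037408-67037657, minus strand for Gadd45a, chr10:80929841-80930090, plus strand for Gadd45b, chr13:51846425-51846674, plus strand for Gadd45g, chr1:191183334-191183583, minus strand for Atf3, chr12:85473640-85473889, plus strand for Fos, and chr17:35821463-35821712, plus strand for Ier3. Capitals mark every match, on either strand, to 8 motifs. These were TATAAA for the TATA box, CACGTG for the E-box, CCAAT for the CCAAT box, TGANTCA for the AP-1 site, TGACGTCA for the cyclic AMP response element, TGACG for the 5-base part that lies within that element, and, by name, the CArG box bound by serum response factor and the NF-kB site.
Gadd45a: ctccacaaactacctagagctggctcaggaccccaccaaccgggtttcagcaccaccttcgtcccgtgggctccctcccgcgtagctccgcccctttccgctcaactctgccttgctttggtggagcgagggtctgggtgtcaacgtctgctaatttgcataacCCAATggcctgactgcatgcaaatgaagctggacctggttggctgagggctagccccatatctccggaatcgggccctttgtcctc
Gadd45b: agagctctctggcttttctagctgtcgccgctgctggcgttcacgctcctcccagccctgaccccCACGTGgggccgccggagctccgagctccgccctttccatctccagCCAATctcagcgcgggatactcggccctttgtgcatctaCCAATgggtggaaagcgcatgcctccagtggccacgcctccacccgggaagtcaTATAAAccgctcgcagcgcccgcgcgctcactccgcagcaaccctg
Gadd45g: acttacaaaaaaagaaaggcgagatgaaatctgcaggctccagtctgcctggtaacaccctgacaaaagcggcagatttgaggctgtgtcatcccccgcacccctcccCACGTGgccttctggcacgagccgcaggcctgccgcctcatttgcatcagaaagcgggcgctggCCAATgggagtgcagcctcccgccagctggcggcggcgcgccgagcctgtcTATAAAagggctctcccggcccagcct
Atf3: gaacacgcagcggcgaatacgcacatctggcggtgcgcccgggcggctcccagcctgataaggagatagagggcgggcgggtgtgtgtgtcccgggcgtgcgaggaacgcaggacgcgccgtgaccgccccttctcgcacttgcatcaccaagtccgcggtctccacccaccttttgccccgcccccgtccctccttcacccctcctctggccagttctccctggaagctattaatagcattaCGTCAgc
Fos: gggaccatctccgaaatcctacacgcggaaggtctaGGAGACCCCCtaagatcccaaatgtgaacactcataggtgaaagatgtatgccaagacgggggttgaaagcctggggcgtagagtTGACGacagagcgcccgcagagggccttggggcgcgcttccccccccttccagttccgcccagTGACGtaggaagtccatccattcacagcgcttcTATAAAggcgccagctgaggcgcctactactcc
Ier3: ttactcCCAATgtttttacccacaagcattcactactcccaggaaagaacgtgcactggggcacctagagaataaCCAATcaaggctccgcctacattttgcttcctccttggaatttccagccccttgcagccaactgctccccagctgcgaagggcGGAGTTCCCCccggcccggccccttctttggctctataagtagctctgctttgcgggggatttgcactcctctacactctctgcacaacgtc

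The Gadd45b and Gadd45g windows shared a TATA box, an E-box and at least 1 CCAAT box, whereas the Gadd45a window held a CCAAT box alone among the motifs searched. The TATA box stood 46 to 41 bases before the start in Gadd45b, 27 to 22 bases before it in Gadd45g and 33 to 28 bases before it in Fos. Of the 32851 mouse promoter windows of the same length, 12.4% held a TATA box, 6.02% an E-box and 33.8% a CCAAT box. The 5-base part TGACG occurred in Atf3, Fos and Junb against 17.8% of all windows, and the NF-kB site in Fos and Ier3 against 3.9%. None of the 8 windows held an AP-1 site, a whole cyclic AMP response element or a CArG box, which were present in 6.75%, 1.55% and 1.47% of all windows. These are matches of letters within 250 bases. Sites farther from the start were not searched, so a motif absent here may lie outside the window, and no factor's binding was measured.

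Gadd45b and Atf3 had the widest diet differences of the 10 genes, both with more signal on the high-Chol diet. Of the 10 genes, 6 had a higher mean on the high-Chol diet (Gadd45b, Atf3, Fos, Ier3, Jun and Egr1) and 4 a lower one (Myc, Gadd45g, Junb and Gadd45a). The median of the 10 log2 differences was 0.70, beside -0.02 for all 16730 genes. The 3 high-Chol arrays lay above the 3 normal chow arrays in 4 genes, Gadd45b, Atf3, Fos and Ier3, and in no gene below them. Of 16438 genes with a value on all 6 arrays, 11.9% lay wholly above and 14% wholly below. In limma's moderated test over all genes, with p-values adjusted by the Benjamini-Hochberg method and a threshold of 0.05, 2.69% of genes were called higher and 0.227% lower on the high-Chol diet, 450 and 38 genes, and with arrays scaled to their medians the counts were 329 and 73. Gadd45b and Atf3 were among the genes called higher, and none of the 10 was among those called lower. Both dropped out of the calls with normexp, with no filter, with slide as a block, with the methods' t-test, and without normal chow array 1 or 2 or high-Chol array 2 or 3, and the counts over all genes ran from 42 to 2316 higher and 0 to 761 lower when 1 array was left out. Since the genes were picked with these differences known, nothing is read from these counts. With normexp, another background correction, the log2 differences of Fos and Ier3 turned to -0.29 and -0.23 and that of Gadd45a to 0.04, while the other 7 genes kept their sign.

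**Figure D1:**
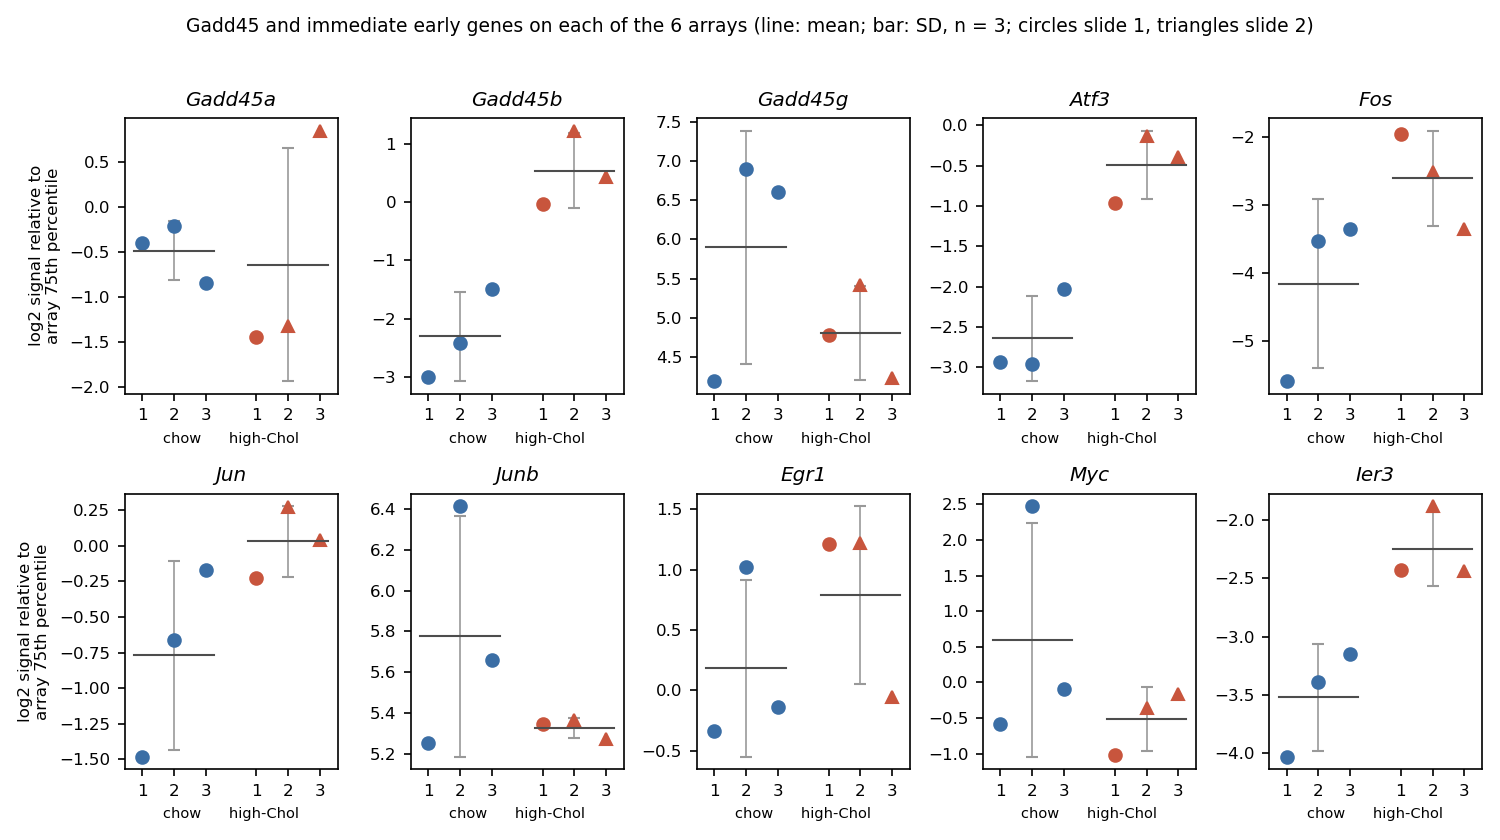
Log2 signal relative to the array's 75th percentile (y axis) of the 10 genes on the 3 normal chow arrays (blue) and the 3 high-Chol arrays (red), with circles for slide 1, triangles for slide 2, lines for the means and bars for the SD (n = 3). Gadd45b, Atf3, Fos and Ier3 have no overlap between the diets, although Fos is separated by only 0.01, and the other 6 genes overlap.

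Among the 3 Gadd45 genes, Gadd45b was the one whose signals separated by diet. It is the family member known as a target of NF-kB and TGF-beta and for its induction in regenerating liver. Its brighter probe, A_51_P500984 (chr10:80721751-80721810 of the mm7 build, plus strand), read -3.00, -2.42 and -1.49 in the 3 normal chow arrays against -0.04, 1.23 and 0.43 in the 3 high-Chol arrays. All 3 high-Chol values were above all 3 normal chow values, with a gap of 1.45 between the highest normal chow array and the lowest high-Chol array. The means were -2.31 ± 0.77 and 0.54 ± 0.64 (SD, n = 3), a log2 difference of 2.84 with a limma SE of 0.45, or 7.17-fold. With normexp the log2 difference was 1.27. The second probe of Gadd45b, A_52_P1197913 (chr10:80721228-80721287 of mm7), read -2.88, -2.56 and -2.10 with normal chow and -0.49, 0.26 and -0.46 with the high-Chol diet. It gave the same order of the diets, with a gap of 1.61 and a log2 difference of 2.28 (SE 0.28).

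Gadd45a, the family member known as a p53 target after DNA damage, gave -0.40, -0.21 and -0.84 under normal chow against -1.45, -1.33 and 0.85 under the high-Chol diet. High-Chol array 3 held the highest of the 6 values and the other 2 high-Chol arrays the lowest, so the diets overlapped. The log2 difference was -0.16 with an SE of 0.59, smaller than the spread among the high-Chol arrays (SD 1.29), and it ran from -0.90 without high-Chol array 3 to 0.25 without high-Chol array 1.

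Gadd45g, known for its induction by cytokines and in differentiating cells, gave 4.19, 6.90 and 6.61 after normal chow and 4.78, 5.42 and 4.23 after the high-Chol diet. Normal chow array 1 held the lowest of the 6 values, while normal chow arrays 2 and 3 were above every high-Chol array. The means were 5.90 ± 1.49 for normal chow and 4.81 ± 0.60 for the high-Chol diet (SD, n = 3), a log2 difference of -1.09 (SE 0.71). Without normal chow array 1 this difference was -1.95, and without normal chow array 2 it was -0.59.

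Atf3, a stress-induced factor of the ATF/CREB family that often represses its targets, had the second widest difference. Its probe (chr1:190724174-190724233 of mm7, minus strand) read -2.94, -2.95 and -2.03 in normal chow livers and -0.96, -0.13 and -0.39 in high-Chol livers. The diets did not overlap, and the gap between them was 1.07. The log2 difference was 2.15 (SE 0.32), which is 4.43-fold, against SDs of 0.53 and 0.42 in the 2 diets (n = 3). With normexp it was 0.75.

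Fos, the AP-1 subunit that must pair with a JUN protein to bind DNA, stayed below the array's 75th percentile throughout. The mean of its 8 to 10 usable spots was -5.59, -3.53 and -3.36 with normal chow and -1.96, -2.51 and -3.35 with the high-Chol diet. The values did not overlap, but high-Chol array 3 and normal chow array 3 were only 0.01 apart, and on normal chow array 1 the probe was not well above background, so that it passed the filter through the high-Chol diet alone. The log2 difference was 1.55 (SE 0.63), and it was 0.84 without normal chow array 1. The spots of 1 array had SDs of 0.07 to 0.16, far below the SDs of 1.24 and 0.70 between the arrays of each diet.

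Jun, the AP-1 subunit that can also pair with itself, gave -1.48, -0.66 and -0.17 under normal chow against -0.22, 0.27 and 0.04 under the high-Chol diet, again as means of 8 to 10 spots. The diets overlapped through normal chow array 3 and high-Chol array 1, which were nearly equal. The log2 difference was 0.80 (SE 0.33), 1.74-fold, and 0.45 without normal chow array 1.

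Junb, a JUN family member that can restrain JUN activity, was read by 2 probes whose diet differences had opposite signs. The brighter probe, A_51_P159194 (chr8:83563059-83563118 of mm7, minus strand), gave 5.25, 6.42 and 5.66 after normal chow and 5.34, 5.36 and 5.27 after the high-Chol diet. Its high-Chol values lay inside the range of the normal chow values, and the log2 difference was -0.45 (SE 0.29), which became -0.13 without normal chow array 2 and -0.71 without normal chow array 1. The other probe, A_51_P159201 (chr8:83563097-83563156 of mm7), gave 3.57, 3.96 and 3.87 in normal chow livers and 4.80, 4.59 and 4.28 in high-Chol livers. There the high-Chol arrays were all above the normal chow arrays by at least 0.32, with a log2 difference of 0.76 (SE 0.20). The probes overlap by 22 bases. The brighter one also holds a run of 22 bases made of G and T alone, against a longest such run of 5 bases in the other. Both stretches are shown, as read on the probe strand, because they are what the Junb probes share and where they differ.
Junb, stretch in both probes: ttcgtgtctaaagtctatttta
Junb, run in A_51_P159194: tgtgtttgtgtgtgtgtgtttg

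Junb is counted among the lower genes by its brighter probe, and whether either stretch bears on the disagreement was not tested.

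Egr1, which is induced through the ERK pathway and serum response factor, gave -0.34, 1.02 and -0.13 with normal chow and 1.21, 1.22 and -0.06 with the high-Chol diet. High-Chol array 3 lay among the normal chow arrays, and normal chow array 2 was close to the other 2 high-Chol arrays. The log2 difference was 0.61 (SE 0.47), below the SD within either diet. It was 0.35 without normal chow array 1, 0.40 without high-Chol array 1 or 2, and 1.03 without normal chow array 2 or high-Chol array 3.

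Myc was set apart by a single normal chow array. Its 10-spot probe gave -0.58, 2.47 and -0.10 under normal chow against -1.02, -0.36 and -0.17 under the high-Chol diet. Normal chow array 2 was 2.81 above the mean of the other 2 normal chow arrays on this probe, and 2.64 and 2.02 above it on the other 2 probes of the gene. Among 14044 genes well above background with a value on all 6 arrays, Myc was the 1 gene that exceeded all other arrays by at least 2 on normal chow array 2, which was looked up after its values were seen. The log2 difference of Myc was -1.12 (SE 0.75), with -1.15 and -0.91 on the other probes, and it was -0.18 without normal chow array 2.

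Ier3, also known as IEX-1, completed the group of genes without overlap. It gave -4.03, -3.39 and -3.15 after normal chow and -2.43, -1.88 and -2.44 after the high-Chol diet. All 3 high-Chol arrays lay above normal chow, with a gap of 0.71, although normal chow array 1 was not well above background for this probe, which passed the filter through the high-Chol diet alone. The log2 difference of the measured values was 1.27 (SE 0.27), and with normexp it was -0.23.

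**Figure D2:**
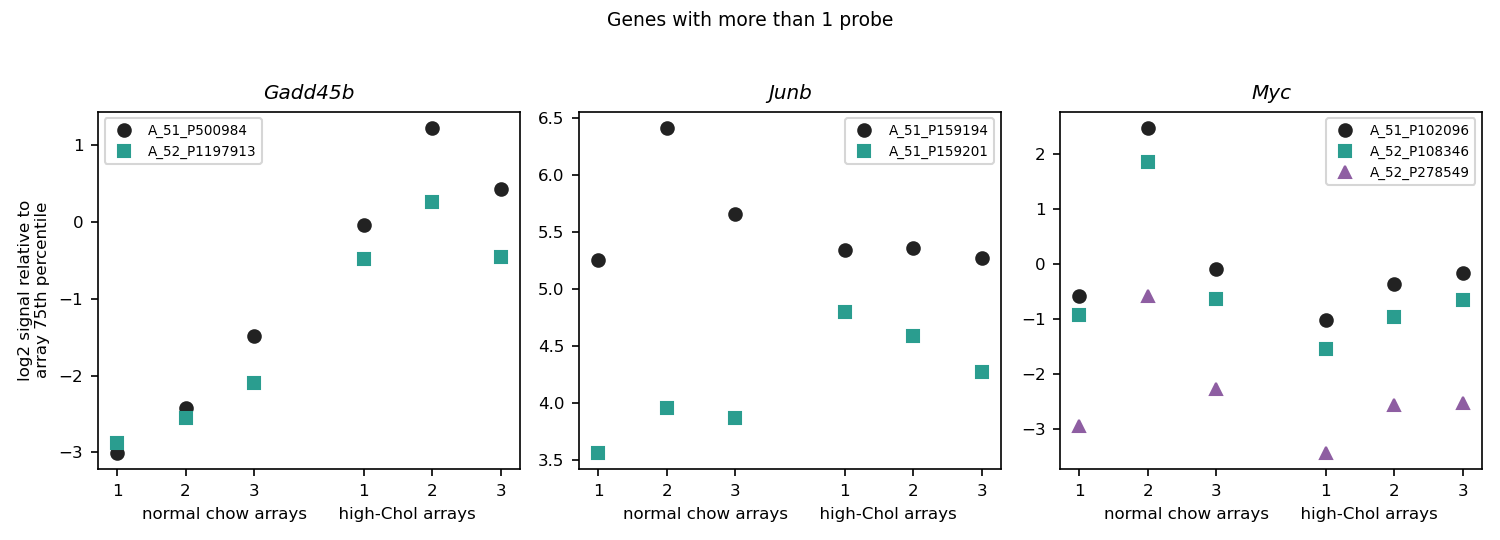
Log2 signal relative to the array's 75th percentile (y axis) of every probe of the 3 genes with more than 1 probe, on the 3 normal chow and the 3 high-Chol arrays (x axis). Both Gadd45b probes are higher on the high-Chol diet, the Junb probes differ in direction (-0.45 and 0.76), and all 3 Myc probes peak on normal chow array 2.

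The slide was partly confounded with the diet, because slide 2 held only high-Chol arrays. Within slide 1, high-Chol array 1 can be set against the 3 normal chow arrays, and the fit with slide as a block rests on the same comparison. There the log2 difference was 2.27 for Gadd45b, 1.68 for Atf3, 2.20 for Fos and 1.09 for Ier3. All 10 genes had the same sign within slide 1 as over all 6 arrays. Gadd45a moved most towards the lower side, to -0.96, and Myc was at -1.62. With slide as a block, 0.0658% of all genes were called higher, 11 of 16730, and none of the 10 genes was among them. High-Chol array 1 had the lowest of the high-Chol values for Gadd45b and Atf3 and the highest for Fos.

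**Figure D3:**
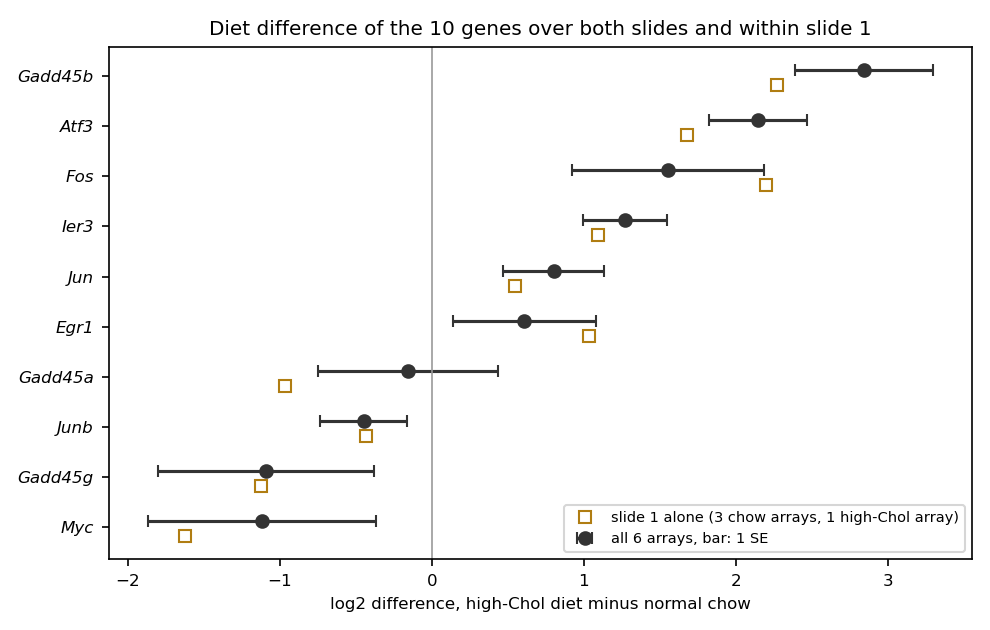
Log2 difference between the high-Chol diet and normal chow (x axis) for each gene over all 6 arrays (filled circles, bar 1 limma SE) and within slide 1 alone (open squares, 3 normal chow arrays and 1 high-Chol array). The squares keep the sign of the circles in all 10 genes, from 2.27 for Gadd45b to -1.62 for Myc.

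The spread between arrays of 1 diet was wide for several of the 10 genes. Their SDs on normal chow ran from 0.33 for Gadd45a to 1.64 for Myc, and all 10 were above 0.202, the median SD of all genes. On the high-Chol diet 8 of 10 were above the median of 0.249, and the SDs ran from 0.05 for Junb to 1.29 for Gadd45a. Normal chow array 1 held the lowest of the 6 values for 7 of the 10 genes (Gadd45b, Gadd45g, Fos, Jun, Junb, Egr1 and Ier3), beside 19.5% of all genes. High-Chol array 2 held the highest value for 5 of the 10 (Gadd45b, Atf3, Jun, Egr1 and Ier3), beside 21.7% of all genes. The genes were picked with some diet differences known, which bears on both counts. Among the 3 normal chow arrays, array 1 was lowest for 8 of the 10, beside 42.9% of all genes. Among the 3 high-Chol arrays, array 2 was highest for 7 of the 10, beside 31.7% of all genes. Normal chow array 2 held the highest value for Gadd45g, Junb and Myc.

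Markers of myeloid cells differed between the diets alongside these genes. Of 9 macrophage and Kupffer cell markers, 8 passed the filter (Itgam did not), all 8 had a higher mean on the high-Chol diet and 3 were called, with a median log2 difference of 0.77. Over all genes 47.8% had a higher mean and 2.69% were called higher. Their mean level ranged from 2.42 to 2.71 over the normal chow arrays and from 3.53 to 3.70 over the high-Chol arrays. Of 8 neutrophil markers, 5 passed the filter (Ngp, Elane and Camp did not), and their mean level ranged from -3.18 to -2.87 over the normal chow arrays and from -1.38 to -0.21 over the high-Chol arrays. S100a8, S100a9 and Retnlg were called higher, but Retnlg was well above background on 0 and Ltf on 1 of the 3 normal chow arrays, so both passed the filter through the high-Chol diet alone. With slide as a block none of the calls in the macrophage and neutrophil lists held. The hepatocyte list had a median of -0.34 with 9 of 10 markers lower and none called, and the T and B cell, endothelial, and stellate and cholangiocyte lists had medians of 0.54, 0.07 and -0.08 with none called. With slide as a block these medians were 0.01, 0.17 and 0.08. The part of these cells in the signals of the 10 genes was not tested.

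Relatives and partners of the 10 genes were read from lists drawn up from general knowledge, but with earlier results of these arrays known, so their calls are not independent evidence. Of 16 further AP-1 and related bZIP factors tested, 10 had a higher and 6 a lower mean on the high-Chol diet. Their median log2 difference was 0.46, and 47.8% of all genes had a higher mean. Batf, a partner of JUN proteins in immune cells, rose by 1.71 (SE 0.22, limma adjusted p = 0.0120). It was the only one called, 1 of 16 genes beside 2.69% of all genes. An unadjusted p under 0.05 was found for 4 higher and 1 lower, beside 2064 and 1477 of all 16730 genes. Fosl2, 1 of those 4, was well above background on 2 of the 3 normal chow arrays and passed the filter through the high-Chol diet alone. The largest differences in the other direction were -0.64 for Mafg and -0.22 for Maff, small MAF proteins, and neither passed the test (adjusted p = 0.143 and 0.754). The spot of Jund on high-Chol arrays 2 and 3 was marked as an outlier and left out of its fit.

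Of 38 other immediate early genes, 37 were on the array and 33 passed the filter, without Egr3, Egr4, Nr4a3 and Ptgs2. Among them 24 had a higher and 9 a lower mean, where 47.8% of all genes had a higher one, and the median log2 difference was 0.34. The test called 6 of the 33 higher, beside 2.69% of all genes, and none lower. Before adjustment 12 higher and 2 lower had p under 0.05, beside 2064 and 1477 of all 16730 genes. Arc, 1 of those 12, was well above background on 2 of the 3 normal chow arrays and passed the filter through the high-Chol diet alone. Egr2, a relative of Egr1, read -3.45, -3.35 and -3.11 in normal chow livers and -0.89, -0.60 and -0.82 in high-Chol livers and rose by 2.53 (SE 0.17, limma adjusted p = 0.00246). It was well above background on 2 of the 3 normal chow arrays and passed the filter through the high-Chol diet alone. Egr2 was also the 1 gene of all 6 lists called with slide as a block (difference 2.41, adjusted p = 0.0452), a fit that sets high-Chol array 1 alone against the 3 normal chow arrays. Tnfaip3, the NF-kB inhibitor A20, rose by 2.27 (SE 0.22, adjusted p = 0.00640). Dusp2, a phosphatase of MAP kinases, rose by 1.93 (adjusted p = 0.0229), and Hbegf, a ligand of the EGF receptor, by 1.35 (adjusted p = 0.0416). The remaining 2, Ier5 and Nfkbiz, are named after their values were seen and rose by 1.34 each. Phlda1 and Trib1, with differences of -1.73 and -0.99, did not pass the test (adjusted p = 0.153 and 0.0932).

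Of 21 p53 targets and growth arrest genes, 12 had a higher mean, beside 47.8% of all genes, and the median log2 difference was 0.12. Pmaip1, which encodes the cell death protein NOXA, rose by 2.28 (SE 0.25, limma adjusted p = 0.00895) and was the only one called, 1 of 21 genes beside 2.69% of all genes. Before adjustment 4 higher and 1 lower had p under 0.05, beside 2064 and 1477 of all 16730 genes. Tnfrsf10b and Ppp1r15a, the latter also known as Gadd34, had differences of -0.75 and -0.37 that did not pass the test (adjusted p = 0.171 and 0.563). Of 15 GADD45 partners and stress MAP kinases, 6 had a higher and 9 a lower mean, with a median of -0.03. Map3k5, the stress kinase ASK1, fell by 1.13 on the log2 scale (SE 0.21, limma adjusted p = 0.0377). It was the 1 gene of the 15 called lower, beside 0.227% of all genes, and no gene of the list passed the test as higher. Before adjustment 1 higher and 3 lower had p under 0.05. That higher gene was Cdk1, with the largest positive difference of the list, 1.22 (limma adjusted p = 0.160). Cdk1 was well above background on 2 of the 3 normal chow arrays and passed the filter through the high-Chol diet alone. The next largest positive differences were 0.59 and 0.37 for Mapk13 and Mapkapk2, in the p38 pathway (adjusted p = 0.399 and 0.420).

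Of 19 genes of the Myc network and its targets, 4 had a higher and 15 a lower mean, where 47.8% of all genes had a higher one. Their median log2 difference was -0.21, and limma called none in either direction. An unadjusted p under 0.05 was found for 1 higher and 2 lower, beside 2064 and 1477 of all 16730 genes. The 1 higher gene was Mxd3, with a difference of 2.04 (limma adjusted p = 0.106). It was well above background on 0 of the 3 normal chow arrays and passed the filter through the high-Chol diet alone. Among genes that every array measured well above background, the 2 largest negative differences were -0.55 for Mxd4, an antagonist of MYC, and -0.51 for Odc1, the first enzyme of polyamine synthesis. The 2 largest positive ones were 0.22 and 0.19 for Nop56 and Nop58, which build ribosomes. Of 14 inputs of the ERK and serum response pathways, 6 had a higher and 8 a lower mean, with a median of -0.04. None was called, with 1 in each direction at an unadjusted p under 0.05, beside 2064 higher and 1477 lower of all 16730 genes. Egfr, the EGF receptor, had a difference of -0.88 (adjusted p = 0.108) and Map2k2 of -0.31, while Rps6ka3 and Spry2 had 0.70 and 0.40. The median of all genes was -0.02, and no test was made of a list as a whole. With slide as a block the calls in the 6 lists were lost except that of Egr2, which there rests on 1 high-Chol array, and with normexp all were lost.

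**Figure D4:**
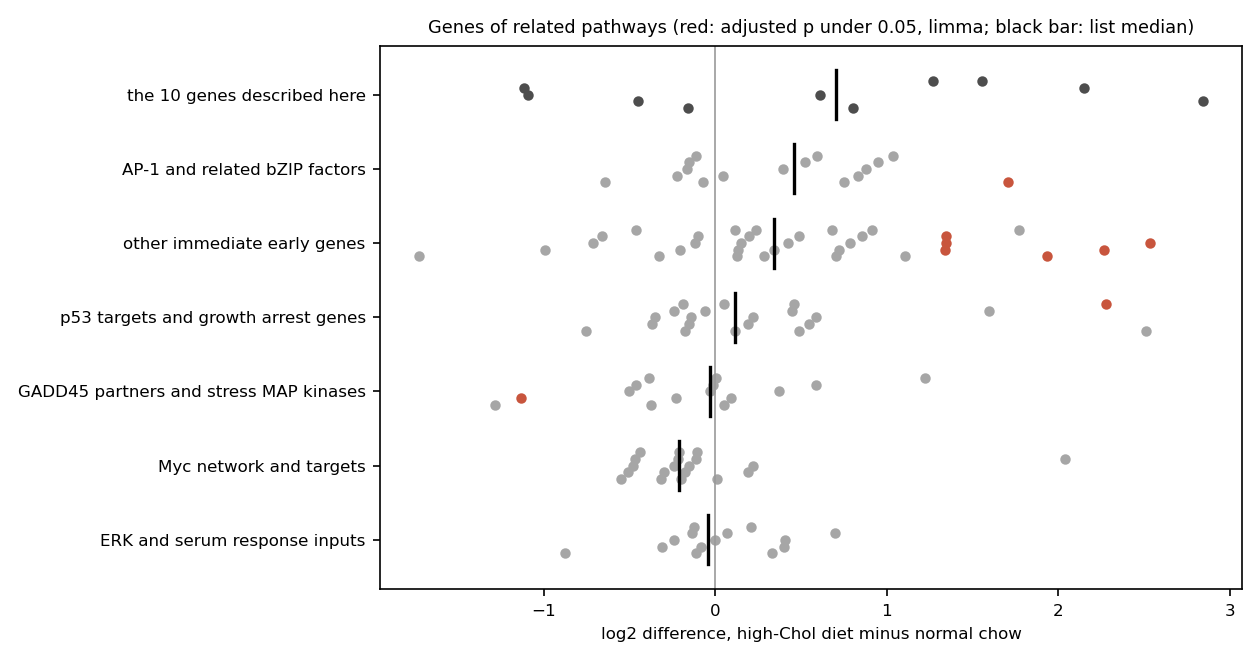
Log2 difference between the high-Chol diet and normal chow (x axis) of every tested gene of the 6 lists, with the 10 genes described here in the top row (dark grey, shown without their calls). Red points have a limma adjusted p under 0.05 over all genes and black bars are the medians. These run from 0.46 for the AP-1 factors to -0.21 for the Myc network in the lists. The 10 genes were chosen with some of their differences known, so their median of 0.70 is a description only.

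The array-by-array pattern of Gadd45b was closest to those of Lilrb4, an inhibitory receptor of myeloid cells, Lgals3, the lectin galectin-3, and Plaur, the urokinase receptor. Their centred values differed from those of Gadd45b by a root mean square of 0.29, 0.36 and 0.38 over the 6 arrays, in a search of 14044 genes. Their log2 differences were 2.80, 2.98 and 2.57. The patterns nearest to Gadd45a were those of Gloxd1, Prox1 and Edg8, at 0.30 to 0.32, and those nearest to Gadd45g were 6030422H21Rik, 2810043G22Rik and AA986860, at 0.27 to 0.39. The mean centred profile of the 10 genes, lowest on normal chow array 1 at -1.07 and highest on high-Chol array 2 at 0.55, was nearest to Igj, Mgst3, Olfr282, Prss22 and the transcript NAP061630-1, at 0.13 to 0.20.

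The authors' own normalized table, with 1 value per probe and diet and no replicates, held 13 of the 14 probes. In the authors' values the log2 difference was 2.60 and 2.04 for the Gadd45b probes, 1.91 for Atf3, 1.32 for Fos, 0.56 for Jun and 0.37 for Egr1. It was -0.40 for Gadd45a, -1.33 for Gadd45g, -0.69 and 0.51 for the Junb probes and -1.36, -1.39 and -1.15 for the Myc probes. Over 22604 probes the authors' differences followed those computed here with a slope of 1.004 and an offset of -0.24, the same direction and scale with another centre. Every probe of the 10 genes in that table had the sign found here, including the disagreement within Junb.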

How the data were processed

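Liver RNA from 3 arrays a diet was measured on 1-colour Agilent mouse arrays. The authors scanned the arrays and deposited the spot intensity files written by Feature Extraction (version 9.1 per the labels; the file headers give 9.5 for slide 1), whose processed signal is a background-subtracted intensity. The authors also deposited a table of normalized log2 values, 1 per probe and diet, used only for comparison; how its values were centred is not stated. Probe positions are those of the file headers (mm7), which do not say whether a probe lies in an exon or untranslated region.

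From the 45018 spots of an array, 1639 control spots and spots marked as outliers were left out. Log2 of the processed signal minus the array's 75th percentile was averaged over the spots of a probe. A probe had to exceed its background clearly (the scanner software's flag) on each of the 3 arrays of at least 1 diet, and a gene was read by its brightest kept probe. Probes of a member were also given singly. All genes were fitted in limma 3.58.1 (R 4.3.3; lmFit and eBayes, both diets, no covariate) and tested on simulated data first. Benjamini-Hochberg adjustment ran over all 16730 genes, with a threshold of 0.05. Precision is limited by having 3 arrays a diet, and p-values measure only the spread between these arrays.

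The 10 genes and the gene lists were chosen with earlier results of these data known. Of each list, the text names the genes called by limma, at most 4 in each direction by size, or else the 2 largest differences in that direction among genes well above background on all 6 arrays. Alternatives were normexp background correction (offset 50), median and quantile scaling, no filter, a filter on all 6 arrays, outlier spots kept, the mean of a gene's probes, every probe singly, slide as a block, a trended and robust prior, the methods' t-test and leaving out each array. Promoters came from RefSeq (GRCm38.p6). Figures were drawn with matplotlib 3.10.9.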

Additional observations from a re-analysis of the deposited data

How the results depend on the processing

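The signs of Gadd45b, Atf3, Jun and Egr1 (higher) and of Gadd45g and Myc (lower) held under every alternative run, with log2 differences of 1.27 to 3.25, 0.75 to 2.45, 0.41 to 1.10, 0.29 to 1.03, -1.95 to -0.59 and -1.71 to -0.18. With normexp background correction Fos was at -0.29, Ier3 at -0.23, Atf3 at 0.75 and Gadd45b at 1.27, while the median of all genes was at -0.11; normexp adds 50 to every signal before scaling, and the cause was not tested. Gadd45a was above 0 with normexp (0.04), without high-Chol array 1 (0.25) and without high-Chol array 2 (0.18). Junb was above 0 on its dimmer probe (0.76) and in the mean of its probes (0.15). Median scaling shifted the median of all genes to -0.26, and every one of the 10 genes kept its sign there. The number of the 10 genes with a higher mean was 5 with normexp, 5 in the authors' values, which lack Ier3, and 4 with the filter on all 6 arrays, which dropped Fos and Ier3, and ranged from 6 to 7 when arrays were left out. Gadd45b and Atf3 did not pass the threshold over all genes with normexp, no filter, slide as a block or the methods' t-test, nor without normal chow array 1 or 2 or high-Chol array 2 or 3, and Ier3 passed it without high-Chol array 1. Over all genes, 450 were called higher and 38 lower, against 26 and 0 with no filter, 11 and 0 with slide as a block, 450 and 89 with the trended and robust prior, and 42 to 2316 and 0 to 761 when arrays were left out (fewest without normal chow array 2, most without high-Chol array 1).

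The calls of the lists changed with the setting. In limma after normexp 0 genes were called in each of the 6 lists and 0 of all genes, where, before adjustment, 267 higher and 39 lower had p under 0.05. Likewise, the methods' t-test after Benjamini-Hochberg adjustment also called 0 in each list, and 4 higher and 1 lower of all genes. Without a filter 1 other immediate early gene was called and 0 in the other lists, and slide as a block called the same numbers, 1 and 0. Of the p53 list 2 genes were called with median scaling, the filter on all 6 arrays, the trended and robust prior and every probe singly, which also called 1 ERK input. When arrays were left out, calls ranged from 0 to 5 for AP-1 factors, 2 to 9 for other immediate early genes, 0 to 3 for p53 targets, 0 to 4 for GADD45 partners, 0 to 1 for the Myc network and 0 to 1 for ERK inputs. In each list the highest count came without high-Chol array 1, which left the diets on separate slides, and the lowest for AP-1 factors, other immediate early genes and p53 targets came without normal chow array 2. Map3k5, the 1 gene of the GADD45 list, was lost without any 1 of the other 5 arrays. No paired analysis was possible because the labels give 1 sample a diet and the arrays carry no replicate number. Signal over background limits Fos and Ier3, which were below the detection flag on normal chow array 1. In the 6 lists it limits Egr2, Fosl1, Fosl2, Nr4a2, Arc, Cdk1, Mxd3 and Spry4, which passed the filter through the high-Chol diet alone. Of these, Spry4 had a lower mean on the high-Chol diet and the others a higher one.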
